A study of Mus musculus with 6 samples.

Results

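The Wnt ligand genes considered here are the 10 rows of the raw count table named Wnt3, Wnt3a, Wnt4, Wnt5a, Wnt5b, Wnt7b, Wnt10a, Wnt10b, Wnt11 and Wnt16, out of 56941 genes in the table. They were picked out by gene name, and the list was made with earlier results of these data known. RNA sequencing was performed on hair follicle stem cells (HFSCs) of female mice at postnatal day (PD) 68, which the study places in the second telogen, the resting phase of the hair cycle. The cells came from dorsal skin and were sorted by FACS as CD34+ and α6-integrin+. Stage and sort are as the study gives them and were not tested in these libraries. Markers of hair shaft, matrix and proliferation, given below, were higher in the WT libraries. There were 3 WT libraries (K14CreER-/- Dab2 fl/fl) and 3 Dab2-cKO libraries (K14CreER+/- Dab2 fl/fl), each labelled as a biological replicate. Both genotypes carried the floxed Dab2 allele on the B6;129S4-Dab2tm1Cpr/J strain, and both were given tamoxifen by intraperitoneal injection at 75 mg/kg on 5 consecutive days. The Cre is driven by the keratin 14 promoter, which is active in basal keratinocytes of the whole epidermis and hair follicle, so recombination was not restricted to HFSCs.

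Wnt ligands are secreted, lipid-modified glycoproteins that bind Frizzled receptors on the same or on neighbouring cells. In the canonical branch they engage Frizzled with Lrp5 or Lrp6, β-catenin escapes its destruction complex, and Tcf/Lef factors transcribe target genes. In the non-canonical branch, Frizzled acts with Ror, Ryk and planar polarity proteins on the cytoskeleton or on calcium release, with no need of β-catenin. In the hair follicle, canonical signaling in the hair germ accompanies the telogen-to-anagen transition. The members were grouped as canonical (Wnt3, Wnt3a, Wnt7b, Wnt10a and Wnt10b), as non-canonical (Wnt5a, Wnt5b and Wnt11), or as described in both branches (Wnt4 and Wnt16). The branch a ligand feeds depends on the receptors of the receiving cell, so these classes describe usual use, and they were assigned with earlier results of these data known.

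Library totals ranged from 7040032 to 11696457 counts. Dab2, the targeted gene (ENSMUSG00000022150, an endocytic adaptor), was not lower in the libraries labelled Dab2-cKO: its normalized count averaged 327 ± 15.4 in WT libraries (SD, n = 3) against 1375 ± 68.2 in Dab2-cKO libraries (SD, n = 3; log2 fold change 2.08, SE 0.08, edgeR's adjusted p = 3.04e-34). The count columns were tied to the genotypes by their names, those named FL-FL taken as Dab2-cKO, although both genotypes carry the floxed allele. Every direction below is therefore given between libraries as labelled, and all would turn if those names were exchanged. Normalized counts are counts divided by the library's TMM-scaled size and multiplied by the mean of those sizes. A gene was called where edgeR's adjusted p over all genes tested was under 0.05, and log2 fold changes are Dab2-cKO over WT. Of the 32149 genes tested, 9069 (28.2%) were called, 5387 (16.8%) higher and 3682 (11.5%) lower, and the median log2 fold change was -0.0234. These shares are the background against which the counts of members stand. The split depends on scaling: 59.4% of the calls were higher with TMM, 43.5% with upper-quartile scaling and 19.4% with library size alone, and these last 2 moved the median log2 fold change of all genes by -0.143 and -0.427.

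The Wnt ligands of the mouse share a site on which porcupine, an acyltransferase of the endoplasmic reticulum, places palmitoleate on a serine, the lipid by which the ligand is carried by Wls and held by Frizzled. The 24 coding bases around that site are shown because they are the same functional element in every member, and the serine codon is in capitals. They were read from GRCm39 with the GENCODE vM39 annotation, 5′ to 3′ on the coding strand.
Wnt3 (chr11:103703140-103703163, plus strand, exon 4 of 5, residue 212 of 355): tgccacgggttgTCCggcagctgc
Wnt3a (chr11:59140879-59140902, minus strand, exon 4 of 4, residue 209 of 352): tgccacgggctaTCTggcagctgt
Wnt7b (chr15:85422013-85422036, minus strand, exon 4 of 4, residue 213 of 356): tgtcacggtgtgTCAggctcctgt
Wnt10a (chr1:74842315-74842338, plus strand, exon 4 of 4, residue 268 of 417): tgccacggcaccTCAggcagctgc
Wnt10b (chr15:98670759-98670782, minus strand, exon 5 of 5, residue 253 of 389): tgccatggaacgTCAggcagctgc
Wnt5a (chr14:28244472-28244495, plus strand, exon 5 of 5, residue 244 of 380): tgtcatggagtgTCTggctcctgt
Wnt5b (chr6:119410761-119410784, minus strand, exon 5 of 5, residue 236 of 372): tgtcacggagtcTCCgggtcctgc
Wnt11 (chr7:98499467-98499490, plus strand, exon 4 of 5, residue 215 of 354): tgccatggggtgTCTggctcctgc
Wnt4 (chr4:137023656-137023679, plus strand, exon 5 of 5, residue 212 of 351): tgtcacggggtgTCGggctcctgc
Wnt16 (chr6:22297799-22297822, plus strand, exon 4 of 4, residue 226 of 364): tgccacggagttTCCggctcctgt
The serine codon was TCC in Wnt3, Wnt5b and Wnt16, TCA in Wnt7b, Wnt10a and Wnt10b, TCT in Wnt3a, Wnt5a and Wnt11, and TCG in Wnt4. The site fell at 59.4 to 65.0% of the protein's length in the 10 members. Among the members TCA was found in canonical ones, while TCC and TCT each occurred in canonical and non-canonical members. Outside the members, Wnt7a, Wnt8a and Wnt9b also had TCA. All these codons encode serine, so the codon does not mark a class. The longest stretch shared by any pair of Wnt transcripts was 29 bases, between Wnt5a and Wnt5b.

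Of the 10 members, all of which passed the low-count filter, 5 were called. Wnt5a, Wnt11, Wnt10b and Wnt4 fell and Wnt7b rose. The groups did not overlap for 8 of the 10, against 38.3% of all genes tested, and the members' median log2 fold change was -0.48. An exact 2-sided permutation test of 3 against 3 cannot go below p = 0.1, the value that those 8 members reached. Falls of 4 of 10 members stand against the 11.5% of all genes called lower, and the 5 calls against 28.2% called in either direction. The members were chosen with earlier results known, and the other 9 Wnt ligand genes of the mouse gave no call. These counts therefore do not describe the whole ligand family.

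**Figure D1:**
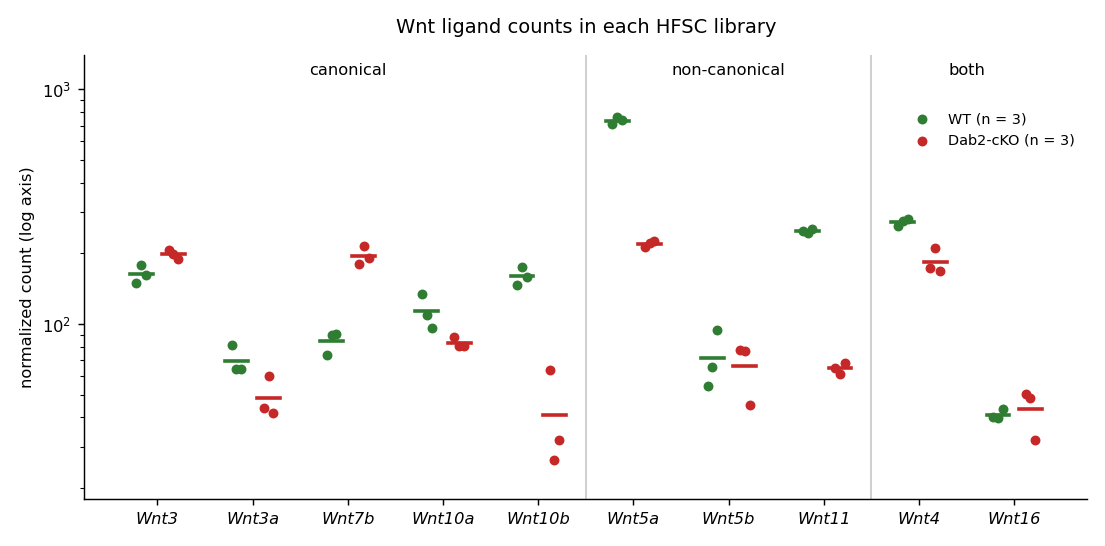
Normalized counts (log axis) of the 10 Wnt ligand genes in the 3 WT (green) and 3 Dab2-cKO (red) libraries, with each group's mean as a bar. Wnt5a, Wnt11 and Wnt10b sit lower in every Dab2-cKO library, Wnt7b sits higher, and the groups overlap for Wnt5b and Wnt16.

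Among the non-canonical ligands, the 2 abundant ones fell and the least abundant was not called. Wnt5a (ENSMUSG00000021994, chromosome 14, 28226495 to 28249405, plus strand), the classical ligand of planar polarity and calcium signaling, had normalized counts of 708, 757 and 738 in the WT libraries and of 213, 222 and 225 in the Dab2-cKO libraries. No other member had as high a normalized count in any WT library, and the lowest WT value was over 3 times the highest Dab2-cKO value. The mean went from 735 ± 24.9 to 220.0 ± 6.51 (SD, n = 3 each), a log2 fold change of -1.74 (SE 0.09, 95% confidence interval -1.93 to -1.56, edgeR's adjusted p = 1.77e-26). Of its exon bases, 4.46% lie opposite exons of another gene.

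Wnt11 (ENSMUSG00000015957, chromosome 7, 98484319 to 98504402, plus strand) directs cell movements during gastrulation and is a target of other developmental signals. It was counted at 248, 245 and 253 in WT and at 64.8, 61.0 and 68.4 in Dab2-cKO. The libraries of each genotype lay close together and far from those of the other. The mean went from 249 ± 4.14 to 64.8 ± 3.72 (SD, n = 3 each), which was 3.83-fold lower (log2 fold change -1.94, SE 0.15, edgeR's adjusted p = 1.26e-18). Opposite-strand exons cover 7.20% of its exon bases.

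Wnt5b (ENSMUSG00000030170, chromosome 6, 119409323 to 119521897, minus strand), the closest relative of Wnt5a, had 54.6, 65.9 and 93.99 normalized counts in WT and 77.2, 77.1 and 45.2 in Dab2-cKO. The groups overlapped. The log2 fold change was -0.11 (SE 0.22, 95% confidence interval -0.55 to 0.33, edgeR's adjusted p = 0.783), and its sign turned without 1 library: it was 0.15 without WT replicate 3 and 0.08 without Dab2-cKO replicate 3. Because 21.8% of its exon bases lie opposite exons of Fbxl14, reads of both genes cannot be told apart without the strand setting of the counting. Whether the changes of Wnt5a and Wnt5b differ from each other was not tested.

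Of the 5 canonical ligands, 1 rose, 1 fell and 3 were not called. Under upper-quartile scaling, with library size alone and after a filter that kept means of 50 or more, 1 was called higher and 3 lower. Wnt10b (ENSMUSG00000022996, chromosome 15, 98668593 to 98690045, minus strand), a ligand of the hair germ and matrix at anagen onset, had 146, 175 and 159 normalized counts in WT and 63.9, 26.5 and 32 in Dab2-cKO. Every Dab2-cKO library lay below every WT library, and Dab2-cKO replicate 1 stood above the other Dab2-cKO libraries. The mean went from 160.0 ± 14.7 to 40.8 ± 20.2 (SD, n = 3 each; log2 fold change -1.94, SE 0.21, edgeR's adjusted p = 3.73e-13). Without Dab2-cKO replicate 1 the log2 fold change was -2.46.

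Wnt7b (ENSMUSG00000022382, chromosome 15, 85419638 to 85466674, minus strand), a ligand of the follicular epithelium, moved the other way. Its normalized counts were 73.5, 89.4 and 90.6 in WT and 179, 214 and 191 in Dab2-cKO. Every Dab2-cKO library lay above every WT library by a wide margin. The mean rose from 84.5 ± 9.54 to 195 ± 17.7 (SD, n = 3 each), which was 2.29-fold (log2 fold change 1.19, SE 0.15, 95% confidence interval 0.89 to 1.50, edgeR's adjusted p = 4.68e-10). Wnt7b was the only one of the 10 members called higher, where 16.8% of all genes tested were.

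The other 3 canonical ligands showed small differences that missed the threshold. Wnt3 (ENSMUSG00000000125, chromosome 11, 103664976 to 103708853, plus strand), which signals in the hair shaft lineage, had 149, 179 and 162 normalized counts in WT and 206, 198 and 190 in Dab2-cKO (log2 fold change 0.27, 95% confidence interval 0.02 to 0.53, edgeR's adjusted p = 0.115). With library size alone as the scale, its sign turned to -0.15. Wnt3a (ENSMUSG00000009900, chromosome 11, 59138859 to 59181584, minus strand), the ligand most often used to activate β-catenin in culture, had 81.3, 64.1 and 64.1 in WT and 43.9, 59.8 and 41.9 in Dab2-cKO (log2 fold change -0.52, 95% confidence interval -0.98 to -0.07, edgeR's adjusted p = 0.0814). For Wnt10a (ENSMUSG00000026167, chromosome 1, 74830675 to 74844355, plus strand), which in mice and people is needed for hair and teeth, the counts were 134, 109 and 96.6 in WT and 87.7, 80.5 and 80.6 in Dab2-cKO (log2 fold change -0.44, SE 0.18, edgeR's adjusted p = 0.0533). In all 3 genes the groups did not overlap, yet they were close. Wnt3a passed the threshold in 4 and Wnt10a in 5 of 13 alternative analyses, among them upper-quartile scaling (log2 fold changes of -0.67 and -0.58).

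Of the ligands described in both branches, Wnt4 fell. Wnt4 (ENSMUSG00000036856, chromosome 4, 137004373 to 137027037, plus strand), known for its part in kidney and gonad development, had 262, 274 and 281 normalized counts in WT and 174, 212 and 168 in Dab2-cKO. The groups did not overlap, and Dab2-cKO replicate 2 came nearest to the WT range. The mean went from 272 ± 9.89 to 184 ± 23.9 (SD, n = 3 each; log2 fold change -0.57, SE 0.12, edgeR's adjusted p = 6.99e-05). Wnt16 (ENSMUSG00000029671, chromosome 6, 22288221 to 22298521, plus strand), best known from bone, had 40.1, 39.7 and 43.6 in WT and 50.5, 48.3 and 32 in Dab2-cKO. Wnt16 was not called (log2 fold change 0.09, 95% confidence interval -0.44 to 0.61, edgeR's adjusted p = 0.868), and its sign turned in 4 of 12 alternatives.

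**Figure D2:**
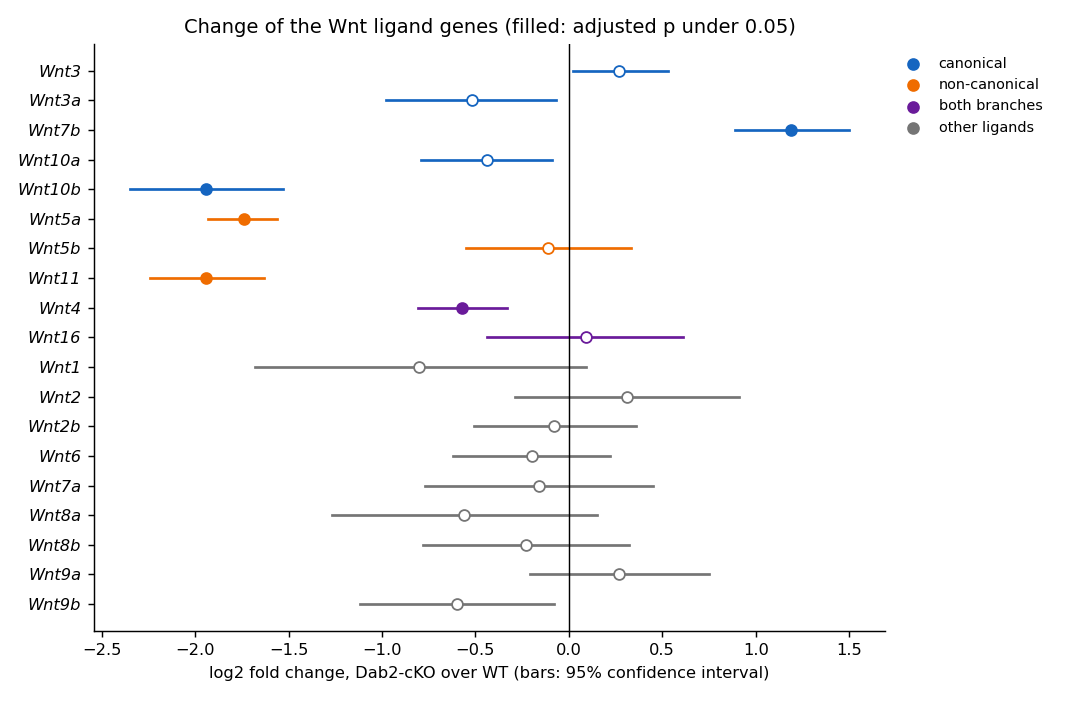
Log2 fold change (x axis, Dab2-cKO over WT) with 95% confidence interval for the 19 Wnt ligand genes of the mouse, by class, from 3 libraries a genotype. Filled circles passed an adjusted p of 0.05: Wnt7b to the right of 0, and Wnt10b, Wnt5a, Wnt11 and Wnt4 to the left.

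Levels were compared between members per kb of exon, since longer transcripts collect more counts. Exon bases were merged over all annotated transcripts of a gene, which can exceed the length of the transcript expressed. Ranks and shares between genes depend on that choice. In WT, Wnt5a led with 91.4 ± 3.09 normalized counts per kb (SD, n = 3), above all others. Wnt4 (54.0), Wnt3 (52.0) and Wnt11 (49.2) followed with ranges that overlapped from each to the next. Then came Wnt10b (31.4), Wnt10a (26.6) and Wnt3a (25.2), again with overlapping neighbours. Wnt7b (16.5), Wnt5b (12.5) and Wnt16 (9.42) came last and overlapped in the same way.

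In Dab2-cKO the order per kb differed. Wnt3 led with 62.9 ± 2.57 (SD, n = 3) and did not overlap the next, Wnt7b (38.0), which overlapped Wnt4 (36.6). Next came Wnt5a at 27.4, apart from both its neighbours. Wnt10a (19.5) and Wnt3a (17.5) overlapped each other. Wnt11 (12.8), Wnt5b (11.7), Wnt16 (9.99) and Wnt10b (8.02) closed the order, each overlapping the next. Wnt7b thus ranked 8 in WT and 2 in Dab2-cKO, and Wnt10b ranked 5 and 10.

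How low these levels are was judged against 1433 chemosensory receptor genes, taken to be mostly silent in skin. Their median was 4.90 normalized counts per kb in WT and 4.83 in Dab2-cKO, and their 95th percentile was 12.3 and 11.7. In WT 9 of the 10 members exceeded that percentile, all but Wnt16. In Dab2-cKO 7 did, and Wnt10b, Wnt5b and Wnt16 lay under it. Values under it cannot be told apart from the level of these receptor genes.

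Summed per kb with TMM scaling, the canonical ligands had overlapping levels in both genotypes and the non-canonical ligands were lower in Dab2-cKO. For WT the canonical sum was 152 ± 5.60 (SD, n = 3), and for Dab2-cKO it was 146 ± 6.93 (SD, n = 3), with ranges that overlapped (146.4 to 157.5 and 138 to 150.4). For the non-canonical ligands the WT sum was 153 ± 5.86 (SD, n = 3) and the Dab2-cKO sum 51.8 ± 2.05 (SD, n = 3), with no overlap. The 2 ligands described in both branches summed to 63.4 ± 2.33 and 46.5 ± 6.25 (SD, n = 3 each). All 10 together went from 368 ± 8.30 to 244 ± 14.7 (SD, n = 3 each).

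Within the canonical sum, Wnt10b went from 31.4 to 8.02 normalized counts per kb and Wnt7b from 16.5 to 38.0, changes of like size in opposite directions. As shares of the 10 members' sum, Wnt10b went from 8.53% in WT to 3.28% in Dab2-cKO, and Wnt7b from 4.47% to 15.6%. Wnt3 took 14.1% in WT and 25.8% in Dab2-cKO, with its own level not called as changed. Wnt5a took 24.8% and 11.2%, and Wnt11 13.4% and 5.26%. The share of Wnt4 was 14.7% in WT and 14.9% in Dab2-cKO, so its fall went along with that of the whole sum.

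The ratio of the canonical to the non-canonical sum does not depend on how libraries are scaled to each other. It was 1.03, 1.02 and 0.924 in the WT libraries and 2.83, 2.83 and 2.79 in the Dab2-cKO libraries. The groups did not overlap, and the means were 0.992 ± 0.0589 and 2.81 ± 0.0230 (SD, n = 3 each), a 2.84-fold difference, given as a description with no test because the classes were set with results known. With Wnt4 and Wnt16 counted as non-canonical the difference was 2.12-fold, without Wnt5a it was 2.43-fold, and with the median rate of the receptor genes subtracted it was 3.53-fold. The canonical sum itself does depend on scaling: as a share of all counts in a library, the canonical ligands took 0.00704 to 0.00744% in WT and 0.00489 to 0.00537% in Dab2-cKO, which do not overlap. Their median log2 fold change was -0.44 with TMM and -0.87 with library size alone, beside -0.0234 over all genes with TMM.

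**Figure D3:**
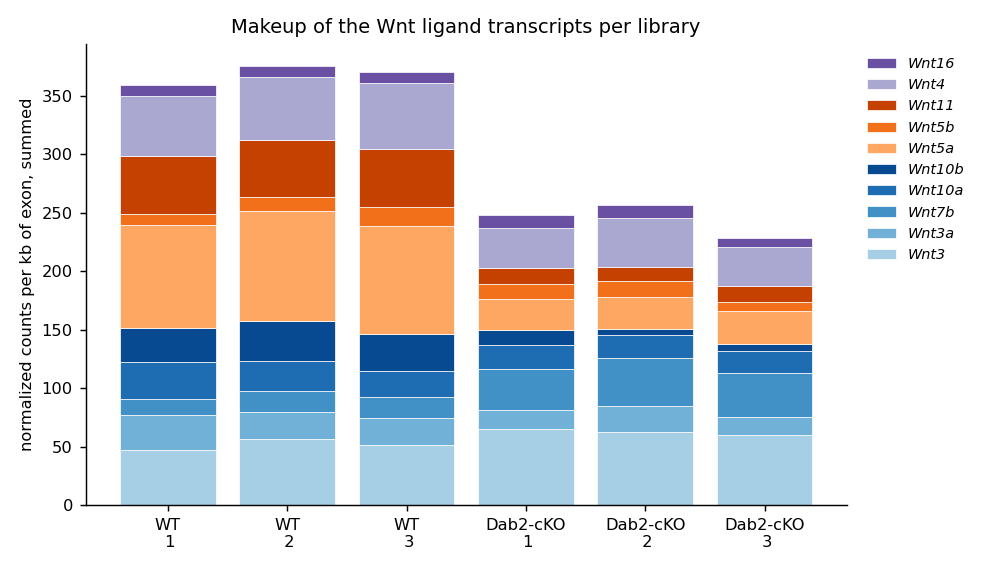
Normalized counts per kb of exon of the 10 Wnt ligand genes, stacked in each of the 6 libraries (blue: canonical, orange: non-canonical, purple: described in both branches). The orange part sums to between 147 and 158 in WT and between 49.5 and 53.2 in Dab2-cKO, while the blue part differs less.

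The other 9 Wnt ligand genes of the mouse (Wnt1, Wnt2, Wnt2b, Wnt6, Wnt7a, Wnt8a, Wnt8b, Wnt9a and Wnt9b) gave no call. By edgeR 1 of them, Wnt9b, had an unadjusted p under 0.05 (log2 fold change -0.60, edgeR's adjusted p = 0.0789), and DESeq2 called 0. Their mean normalized counts ranged from 20.5 to 74.0 in WT, and 2 of the 9 exceeded the 95th percentile of the receptor genes in each genotype. At such levels a difference could be missed at this depth. With library size alone as the scale 4 of the 9 were called lower (Wnt1, Wnt6, Wnt8a and Wnt9b), and with upper-quartile scaling Wnt9b was. The absence of calls also rested on single libraries: Wnt9b was called lower without WT replicate 1 and Wnt8a without Dab2-cKO replicate 3.

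Of the members, 4 lie next to another Wnt gene, an arrangement old in the family. Wnt10b and Wnt1 overlap on opposite strands of chromosome 15 by 2308 bases, and 9.61% of the exon bases of Wnt10b lie opposite other exons. Wnt1 had a log2 fold change of -0.80 (95% confidence interval -1.68 to 0.09, edgeR's adjusted p = 0.191) beside the -1.94 of Wnt10b. Wnt10a and Wnt6 are 5699 bases apart on the same strand, with log2 fold changes of -0.44 and -0.20. Wnt3 lies 24320 bases from Wnt9b (0.27 and -0.60), and Wnt3a lies 15982 bases from Wnt9a (-0.52 and 0.27). In none of these 4 pairs were both genes called.

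The 3 members with the largest falls (Wnt5a, Wnt11 and Wnt10b) are shown with the 250 bases upstream of the start of their canonical transcript. These genes moved in the same direction, so what lies before those starts can be compared. The windows of Wnt11 and Wnt10b lie inside the annotated gene, whose outermost start is further upstream. The sequences are from GRCm39 with GENCODE vM39 starts, 5′ to 3′ on the gene's strand, hold no annotated exon, and have matches in capitals.
Wnt5a (chr14:28226245-28226494, plus strand): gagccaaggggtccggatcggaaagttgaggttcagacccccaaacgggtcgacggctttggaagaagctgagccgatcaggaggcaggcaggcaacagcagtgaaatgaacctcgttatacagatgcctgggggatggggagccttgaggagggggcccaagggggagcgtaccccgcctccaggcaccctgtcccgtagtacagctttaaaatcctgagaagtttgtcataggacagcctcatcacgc
Wnt11 (chr7:98487802-98488051, plus strand): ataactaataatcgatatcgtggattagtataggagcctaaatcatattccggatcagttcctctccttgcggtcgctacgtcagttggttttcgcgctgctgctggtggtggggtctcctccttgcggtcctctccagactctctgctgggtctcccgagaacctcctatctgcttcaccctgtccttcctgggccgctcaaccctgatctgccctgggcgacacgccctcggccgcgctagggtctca
Wnt10b (chr15:98676450-98676699, minus strand): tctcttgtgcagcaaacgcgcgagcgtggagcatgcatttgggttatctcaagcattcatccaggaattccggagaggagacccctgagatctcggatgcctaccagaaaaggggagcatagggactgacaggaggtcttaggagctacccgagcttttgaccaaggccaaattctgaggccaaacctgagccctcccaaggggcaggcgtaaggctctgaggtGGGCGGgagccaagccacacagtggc
Both strands were searched for the core that Tcf/Lef factors bind, spelled CTTTGAA with its variant, which ends in T in place of the last A, and for the TATA box (TATAAA), the box named after its letters CCAAT, and the GC box (GGGCGG). Neither form of the Tcf/Lef core was found in the windows of the 10 members, against 7.54% of 21770 protein-coding promoters. The TATA box was found in 0 of the 10 (11.9% of all promoters), the CCAAT box in 3 (36.5%) and the GC box in 6 (36.3%). In the windows printed, the GC box occurred once before Wnt10b. A match or its lack describes these letters only.

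The rest of the pathway was read from lists of genes by role, with shared genes: Notum stands in the export and feedback lists, and Lef1 and Tcf7 in the relay and feedback lists. Ligands reach their receptors through an export route, of which 11 genes were listed: 2 were higher, 3 were lower and 6 were not called. Porcn, which acylates the serine shown above, had a mean of 88.5 ± 10.7 in WT, compared with 48.7 ± 7.27 in Dab2-cKO libraries (SD, n = 3 each; log2 fold change -0.86, edgeR's adjusted p = 0.000791). Wls, the carrier that takes acylated ligands to the surface, was at 1105 ± 73.5 and 840.1 ± 33.6 (SD, n = 3 each; -0.40, adjusted p = 1.03e-05 by edgeR). Vps26a of the retromer, which recycles Wls, rose (0.31), as did Tmed2, a cargo receptor of the early secretory route (0.39), but with library size alone as the scale both signs turned (-0.11 and -0.04). With upper-quartile scaling Vps26a was not called (0.17, edgeR's adjusted p = 0.14). The median over the 11 genes was 0.03, beside -0.0234 over all genes. With library size alone, 0 of the 11 were higher and 9 were lower.

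On the receiving side, 1 of 10 Frizzled genes was higher, 6 were lower and 3 were not called. Fzd4 went up from 447 ± 64.3 normalized counts to 1184 ± 96.2 (SD, n = 3 each; log2 fold change 1.40, edgeR's adjusted p = 7.69e-24). Fzd5 fell from 458 ± 71.8 to 95.6 ± 12.9 (SD, n = 3 each; -2.26) and Fzd10 from 444 ± 21.7 to 97.3 ± 27.5 (SD, n = 3 each; -2.17). Of the exon bases of Fzd5 and Fzd10, 18.1% and 30.6% lie opposite other exons. The median log2 fold change of the 10 receptors was -0.62.

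With TMM scaling, both branches downstream of the receptors held genes called lower and genes called higher. Of 20 canonical coreceptors and cytoplasmic components, 2 were higher and 9 lower, with a median of -0.15. Lef1 (-3.09) and Tcf7 (-1.0), factors through which β-catenin acts, fell. Tcf7l1, mostly a repressor in HFSCs (0.37), and Pygo1, a β-catenin cofactor (0.73), rose. DESeq2 called 1 higher and 7 lower of the 20, and upper-quartile scaling 1 and 11. Neither called Tcf7l1 (0.37, DESeq2's adjusted p = 0.0522, and with upper-quartile scaling 0.23, edgeR's adjusted p = 0.139). With library size alone 0 were higher and 17 lower (median -0.57), the sign of Tcf7l1 turned (-0.05), and Pygo1 was no longer called (0.30, edgeR's adjusted p = 0.109). Of 21 non-canonical receptors and polarity genes, 5 were higher and 8 lower, with a median of -0.13. Here Vangl2 (-1.45) and Celsr2 (-1.24), core planar polarity proteins, fell, while Daam2 (0.60), a formin that links Dvl to the cytoskeleton, and Camk2d (0.88), a calcium-dependent kinase, rose. Upper-quartile scaling gave 5 higher and 12 lower of the 21. With library size alone 1 was higher and 16 were lower (median -0.56), and Daam2 was no longer called (0.18, edgeR's adjusted p = 0.174).

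Secreted antagonists, which keep ligands or coreceptors from engaging, gave 4 higher and 2 lower of 13, with a median of 0.03. Dkk2 (1.51) and Sfrp4 (1.4) rose, and Wif1 (-1.27) and Sfrp1 (-0.61) fell. Of 13 feedback targets that canonical signaling is known to switch on, 0 were higher and 10 were lower, with a median of -0.86. Among those called lower, the largest shares of exon bases opposite other exons were 48.7% (Notum), 48.4% (Ccnd1), 16.3% (Lef1) and 14.9% (Tnfrsf19). Lef1 and Nkd2, an inhibitor of Dvl (-1.40), had the largest falls by the rule used to name genes. With library size alone as the scale the antagonists gave 3 higher and 5 lower, and the medians of the export genes and of the antagonists were -0.40 and -0.39. The feedback targets then gave 0 higher and 12 lower, with a median of -1.28, and DESeq2 gave 0 higher and 8 lower. No list was tested as a set, and the counts stand beside 16.8% higher and 11.5% lower among all genes.

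**Figure D4:**
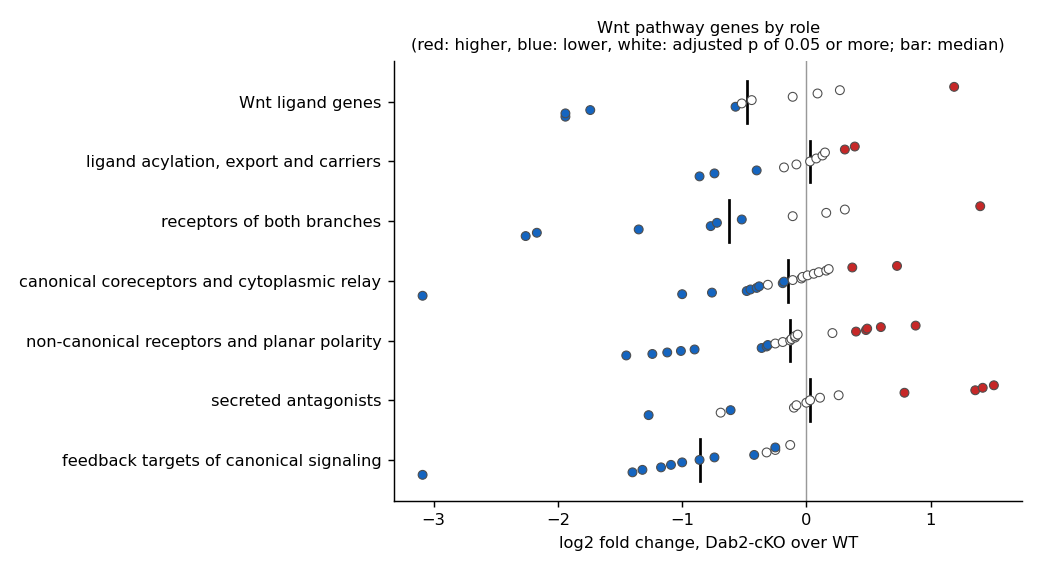
Log2 fold change (x axis, Dab2-cKO over WT) of each tested gene of the Wnt pathway lists by role, with the list median as a bar (red: called higher, blue: called lower, white: not called). The 13 feedback targets have a median of -0.86 and none is higher, while the secreted antagonists lie on both sides with a median of 0.03.

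Marker genes of other cells moved with genotype in the same libraries. Of these markers, Lef1 of the hair germ list and Lgr5 and Tcf7l1 of the bulge list also stand in the pathway lists above. In bulk samples, fewer cells of a type and less RNA per cell cannot be told apart. All 21 markers of hair shaft, inner root sheath and matrix were lower in Dab2-cKO, taking 3.31 to 3.64% of counts in WT and 0.0250 to 0.0265% in Dab2-cKO. All 5 hair germ, 7 melanocyte and 10 proliferation markers were lower as well, as were 4 of 6 of the companion layer. Hair germ markers summed to 2975 to 3494 normalized counts in WT and 865 to 968 in Dab2-cKO, melanocyte markers to 3054 to 3297 and 921 to 978, and proliferation markers to 10560 to 11610 and 3172 to 3288. Their part in the lower counts of Wnt5a, Wnt11, Wnt10b and Wnt4 was not tested.

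Other markers were higher in the libraries labelled Dab2-cKO. Of 11 fibroblast and dermal papilla markers 8 were higher and 3 lower (Corin, Alpl and Hhip), with 1.34 to 1.48% of counts in WT and 3.25 to 3.54% in Dab2-cKO. The collagen genes Col1a1, Col3a1 and Col1a2 were higher and had the largest counts of these 11. That share therefore does not show whether dermal papilla RNA rose or fell. All 6 endothelial, all 6 skeletal muscle and all 9 infundibulum and sebaceous gland markers were higher, as were 7 of 8 immune, 3 of 4 Schwann cell and 6 of 9 suprabasal epidermal markers, of which 1 was lower. Skeletal muscle markers took 0.301 to 0.320% of counts in WT and 1.19 to 1.25% in Dab2-cKO, and the suprabasal markers 0.213 to 0.224% and 0.462 to 0.477%. Of 11 markers listed for the bulge 7 were higher and 4 lower (Lhx2, Sox9, Lgr5 and Foxc1), with 0.250 to 0.263% and 0.296 to 0.315% of counts. The list holds Krt14 and Krt5, which basal keratinocytes outside the bulge also express. Both were higher and had the largest counts of the 11, so the share is not that of the bulge alone. None of the listed markers that have a row in the counts was at 0 in all libraries. Krt85 of the hair shaft list and the name Loricrin, listed beside Lor, had no row. Their part in the higher count of Wnt7b was not tested.

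The genes whose log2 normalized counts followed the 2 called members with the largest rise and fall most closely over the 6 libraries were read among 10848 genes with a mean of at least 100. For Wnt7b they were Sox6 (Pearson r = 0.9995), Hspb1 (0.9994) and Saraf (0.9991). For Wnt10b they were Sox5 (0.9972), Dok4 (0.9964) and Hist1h4a (0.9949). With 6 libraries in 2 groups such values mostly restate the difference between groups: 320 genes exceeded 0.99 for Wnt7b and 13 for Wnt10b.

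**Figure D5:**
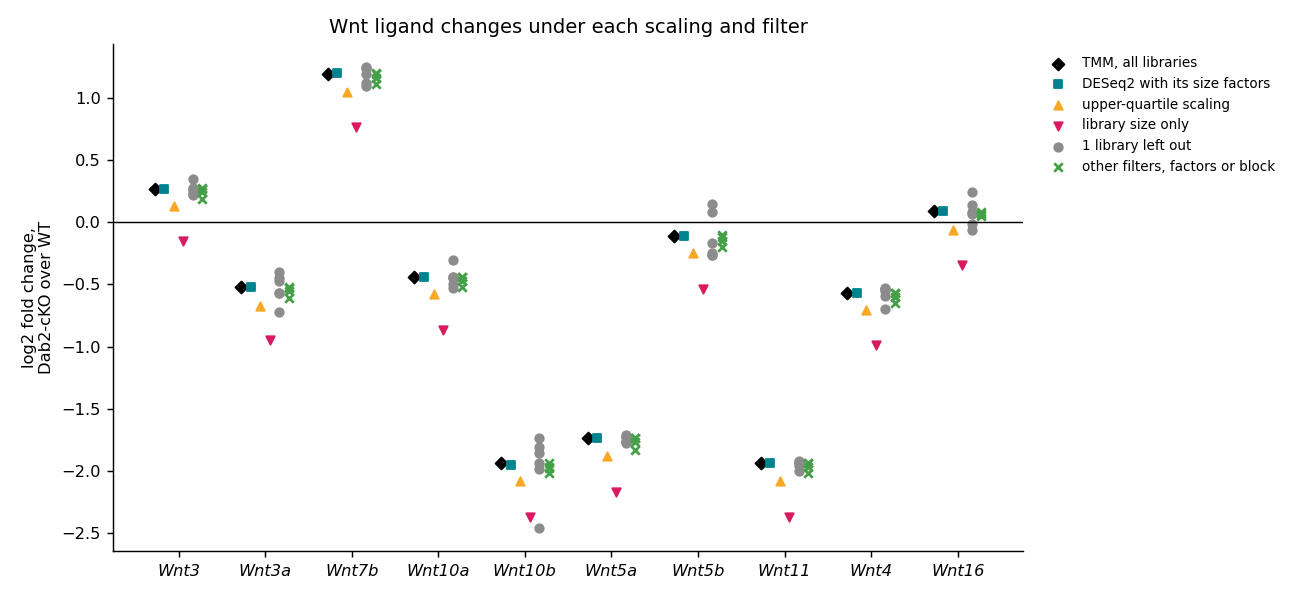
Log2 fold change (y axis, Dab2-cKO over WT) of the 10 Wnt ligand genes with TMM scaling and under each alternative, 1 symbol per analysis. The 5 called members stay on their side of 0 throughout, while Wnt3, Wnt5b and Wnt16 cross it under at least 1 alternative.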

How the data were processed

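Libraries were made from 5 ng of total RNA with a stranded total RNA kit and sequenced as paired-end reads. Per the labels, the submitters' processing notes name FastQC 0.11.9, fastp 0.23.4, HISAT2 2.2.1, SAMtools 1.6, featureCounts 2.0.6 and the GRCm39 build; the strand setting of the counting is not given in the sources used here. The authors deposited raw counts per gene and library, which were used here. A table of the authors' own comparison (mean, log2 fold change, standard error, p, adjusted p and counts divided by size factors) was not used. The columns named FL-FL were taken as Dab2-cKO and those named WT as WT.

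Of 56941 genes, 32149 passed filterByExpr. Genotypes were compared by the quasi-likelihood test of edgeR 4.0.16 (TMM, robust dispersions, R 4.3.3) with Benjamini-Hochberg adjustment over all genes tested, called under 0.05. The fit was tested on simulated data. DESeq2 1.42.0, other scalings and filters, the replicate number as a block and leaving out each library were alternatives. Exon lengths and starts came from GENCODE vM39 on GRCm39, and 31856 of the tested genes had a match. The mean chi-square between replicate libraries, taken on raw counts without TMM, was 3.54 to 11.7 per gene. On average over genes, each pair thus differed by more than sampling noise. That average does not describe single members, whose spread was not compared with sampling noise. Pathway genes named are the 2 largest rises and falls called in each list with a mean of at least 50. The members and lists were chosen with earlier results of these data known.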

Additional observations from a re-analysis of the deposited data

How the results depend on the processing

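The calls of Wnt7b, Wnt10b, Wnt5a, Wnt11 and Wnt4 kept their direction and stayed past the threshold in all 13 alternatives, with log2 fold changes from 0.77 to 1.25, -2.46 to -1.74, -2.17 to -1.71, -2.37 to -1.92 and -0.99 to -0.53. Under upper-quartile scaling 4 canonical ligands were called and the median of the non-canonical ligands was -1.88. With library size only, 8 members and 4 canonical ligands were called, 13854 genes were called in all (2686 higher and 11168 lower), and the canonical and non-canonical medians were -0.87 and -2.17. Requiring a mean count of 50 or more gave calls for 4 canonical ligands and a non-canonical median of -1.83, while Wnt16 was not tested. Wnt16 reversed to -0.06 (upper quartile), -0.34 (library size) and, without Dab2-cKO replicates 1 and 2, to -0.06 and -0.01, with a range of -0.06 to 0.24 over the libraries left out. Wnt3 reversed to -0.15 by library size. Wnt5b reversed to 0.15 without WT replicate 3 and 0.08 without Dab2-cKO replicate 3, in a range of -0.26 to 0.15. Apart from the scalings' shift of all genes, the cause was not tested. The fold between genotypes of the canonical to non-canonical ratio, 2.84, was 2.12 with Wnt4 and Wnt16 as non-canonical, 2.43 without Wnt5a, 3.53 with background subtracted and 2.74 to 2.89 with 1 library left out, choices made after seeing the data.

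Same-numbered libraries deviated together with r of 0.0065 to 0.0221, so the numbers were not taken as pairs. Each library correlated best with its own number, but every r was near 0 and none was tested. That order comes from the data and not from the design, and it does not show a pairing. With the replicate block 8967 genes and the same number of members (5) were called. At 7040032 to 11696457 counts a library, members under about 50 counts, such as Wnt16, had wide intervals.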
